A study of Mus musculus with 6 samples.

Results

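The miR-99, miR-100 and miR-125 families were examined in small RNA libraries of extracellular vesicles from mouse muscle. Extracellular vesicles, called exosomes in the labels, are small membrane particles that cells release and that carry RNA. The members were 5 mature miRNAs, miR-99a-5p, miR-99b-5p, miR-100-5p, miR-125a-5p and miR-125b-5p, found in the deposited table by their mature miRNA identifiers (MIMAT0000131, MIMAT0000132, MIMAT0000655, MIMAT0000135 and MIMAT0000136, in that order). miR-125b-5p stands at 2 loci, so the 5 miRNAs gave 6 loci. The opposite arm of each hairpin, a locus on the same chromosome and strand within 80 bases, gave 6 more, for 12 member loci of 2110 in the table. All 12 held counts, all 12 passed the filter on low counts, and none overlapped another locus of the table. The groups were young muscle and old muscle, with 3 libraries each. No strain, genotype, treatment, age, sex or muscle is given in the sources used here. Nothing in them says whether replicates came from separate animals, so the tests below see no more than library-to-library spread, part or all of which may be technical.

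In a miRNA hairpin, the duplex cut from the stem has a 5p and a 3p strand. Usually one of them, the guide, is loaded into Argonaute, and the other, the passenger, is mostly degraded. Bases 2 to 8 of the guide, the seed, choose the target messenger RNAs, so miRNAs that share a seed share many predicted targets. The genes of these families lie in 3 paralogous clusters, each made of a miR-99 or miR-100 gene, a let-7 gene and a miR-125 gene. miR-99 and miR-100 are known as repressors of mTOR and of IGF1 receptor signalling. miR-125b is the vertebrate counterpart of worm lin-4, and in skeletal muscle it is known to target IGF2 and to restrain myoblast differentiation.

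The mature sequences below show which members share a seed (bases 2 to 8 from the 5′ end, in capitals) and how little separates some of them. All were taken from RefSeq on GRCm38.p6 by exact match of the mm10 coordinates, and all 12 member loci matched. miR-351-5p is no member and is shown because it carries the miR-125 seed. The last pair are the 3p arms that tell the 2 miR-125b genes apart.
miR-99a-5p: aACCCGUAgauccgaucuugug
miR-100-5p: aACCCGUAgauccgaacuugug
miR-99b-5p: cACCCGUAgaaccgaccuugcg
miR-125b-5p: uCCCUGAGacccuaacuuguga
miR-125a-5p: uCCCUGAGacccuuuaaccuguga
miR-351-5p: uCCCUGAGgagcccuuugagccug
miR-125b-1-3p: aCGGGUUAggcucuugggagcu
miR-125b-2-3p: aCAAGUCAgguucuugggaccu

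miR-99a-5p and miR-100-5p differed at 1 of 22 positions, U16A counted from the 5′ end with the base of miR-99a-5p first. miR-99b-5p differed from miR-99a-5p at 4 of 22 positions (A1C, U11A, U16C and U21C), all outside the seed. miR-125b-5p and miR-125a-5p share their first 13 bases, and miR-125b-5p shares its first 8 bases with miR-351-5p. The member loci are 21 to 24 bases long, and their counts were not divided by length.

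The clusters differ in layout (mm10, plus strand throughout). The first lies on chromosome 16 inside introns of the long noncoding RNA gene Mir99ahg, with miR-99a-5p at 77598940 to 77598961 and miR-125b-5p of Mir125b-2 at 77646279 to 77646300. On chromosome 9, miR-100-5p lies at 41531437 to 41531458 and miR-125b-5p of Mir125b-1 at 41581940 to 41581961. Both are inside introns of a long noncoding RNA gene that GENCODE calls 3110039I08Rik and RefSeq Mir100hg, and of the lincRNA Gm49317. On the same strand, Mir125b-1 also overlaps an annotated exon of Gm28119. Starts of the miR-99a and miR-125b genes were thus 47339 bases apart on chromosome 16, and those of miR-100 and miR-125b 50503 bases apart on chromosome 9. The third cluster, on chromosome 17, is compact and lies in Spaca6, a gene for a sperm membrane protein. There miR-99b-5p lies in an intron at 17830194 to 17830215. miR-125a-5p follows 623 bases on, at 17830817 to 17830840, and overlaps an annotated exon of Spaca6. On the opposite strand, miR-100 overlaps an exon of the lincRNA Gm48742 and miR-99a an intron of Gm11146. Counting used no strand option, so reads from either strand of these loci cannot be told apart.

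The libraries held 904892 to 1706396 counts, and the 12 member loci together took 1.55% to 1.7% of them in the young libraries and 1.37% to 1.6% in the old ones. One library, old replicate 1, was unlike the other 5. miR-21a-5p, the main miRNA of these vesicles, took 35.4% of its counts (95% exact binomial interval 35.3 to 35.5, counting error only), against 49% to 52.9% elsewhere. The let-7 5p miRNAs took 15.1% there against 7.38% to 10.2%, and 7 skeletal muscle miRNAs took 9.91% against 4.61% to 6.26%. Of 9 loci of these muscle markers 8 held counts, and the locus at 0 was that of Mir1a-2. Markers of red blood cells (2 of 2 loci with counts) took 4.03% to 4.36% in young and 4.12% to 4.52% in old. Markers of leukocytes (3 of 4 loci, miR-142a-3p at 0) took 0.11% to 0.135% in young and 0.0827% to 0.105% in old. Those of smooth muscle and fibroblasts (5 of 5 loci) took 2.81% to 3.11% in young and 3.59% to 4.36% in old, and the endothelial miR-126a was at 0 on both arms. Overlap with other loci, which can remove reads from a count, was not checked for these markers. A 0 here therefore does not show that a miRNA was absent, and shares of lists with a locus at 0 may be too low. The Mir1a-1 locus, for one, held 1502 to 3436 CPM where that of Mir1a-2 was at 0. The part of these shares in the values below was not tested.

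The miR-99 and miR-100 miRNAs together held more counts than the miR-125 miRNAs together in 6 of 6 libraries. miR-99b-5p held the most counts of any member in every young library and in old replicate 1, and miR-99a-5p in the other old libraries. Such orders are of counts, and whether different sequences were captured equally well in the libraries was not tested. Levels are given as CPM, a locus's share of its library per 1e+06 counts, after scaling by the trimmed mean of M values (TMM). A level depends on what else was counted, and fewer vesicles of a kind and less of a miRNA per vesicle cannot be told apart. miR-99b-5p stood at 6814, 5303 and 4816 CPM in young replicates 1 to 3 and at 3662, 3618 and 3981 CPM in old replicates 1 to 3. Every old library lay below every young one, and the old libraries were closer together. miR-99a-5p stood at 3992, 3682 and 3284 CPM in young and at 3308, 3832 and 4617 CPM in old, so the groups overlapped. miR-100-5p stood at 2432, 2461 and 2018 CPM in young and at 2349, 2623 and 2799 CPM in old, again with overlap.

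miR-125b-5p, both copies summed, stood at 1951, 2924 and 2909 CPM in young and at 2811, 2432 and 1779 CPM in old. Young replicate 1 and old replicate 3 were the low libraries of their groups, and the groups overlapped. Its copies held nearly equal counts, with Mir125b-1 at 0.988 to 1.15 times Mir125b-2 in the 6 libraries. The mature sequence is the same at both, so these counts do not say which of the genes the reads came from. miR-125a-5p stood at 1218, 1637 and 1447 CPM in young and at 1544, 1060 and 1009 CPM in old. Old replicate 1 lay inside the young range and the other old libraries below it.

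**Figure D1:**
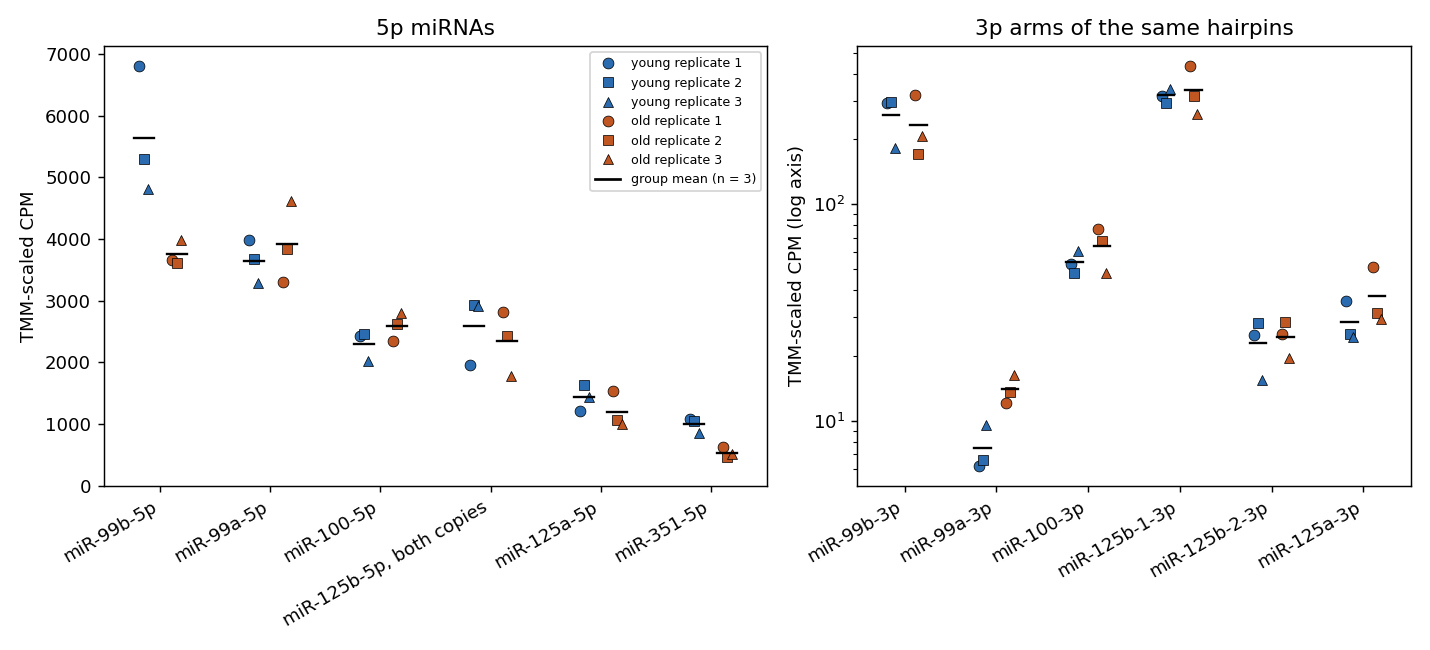
TMM-scaled CPM of the 5p miRNAs on a linear axis (left) and of the 3p arms on a log axis (right) in 3 young (blue) and 3 old (orange) libraries, with group means as short lines; miR-351-5p is shown for its seed. For miR-99b-5p the old libraries (3618 to 3981 CPM) lie below the young ones (4816 to 6814 CPM), while the other member 5p miRNAs overlap.

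The order of the members within a library was compared by count ratios, which need no scaling, with two-sided exact sign-flip permutation tests over the 6 libraries and p adjusted over 6 pairs. The smallest p that 6 libraries allow is 0.0312. miR-99a-5p exceeded miR-100-5p in 6 of 6 libraries, by 1.41 to 1.65 times (mean log2 ratio 0.63 ± 0.10, SD, n = 6, exact permutation p = 0.0312, adjusted 0.0375). Their ratio varied little. They come from different chromosomes but differ at 1 of 22 positions, and whether reads of one were assigned to the other was not tested. miR-125b-5p, summed over its copies, exceeded miR-125a-5p in 6 of 6 libraries by 1.6 to 2.29 times (log2 0.90 ± 0.18, n = 6, exact permutation p = 0.0312, adjusted 0.0375). This order is that of the sum. With the lower of its 2 copies in each library in place of the sum, the mean log2 ratio was -0.141 (adjusted exact permutation p = 0.113). The copies held nearly equal counts, so taking 1 lowers the ratio by construction and cannot decide the order.

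miR-99b-5p exceeded miR-100-5p in 6 of 6 libraries, by 1.38 to 2.8 times (log2 0.91 ± 0.43, n = 6, exact permutation p = 0.0312, adjusted 0.0375). Against miR-99a-5p it was higher in 4 of 6 libraries, every young one and old replicate 1. Over the 6 together, the order of these neighbours was not settled (log2 0.28 ± 0.39, n = 6, exact permutation p = 0.188, adjusted 0.188). The test pooled young and old, and within the groups the SD was smaller, at 0.13 in young and 0.18 in old. For miR-99b-5p over miR-100-5p it was 0.19 in young and 0.09 in old. The 3 miR-99 and miR-100 miRNAs together exceeded both miR-125 miRNAs by 2.14 to 4.18 times (log2 1.54 ± 0.41, n = 6, exact permutation p = 0.0312, adjusted 0.0375). Next to each other in the order, miR-100-5p and miR-125b-5p (copies summed) were not tested. Their ratio ran from 0.694 to 1.57, with miR-100-5p higher in 3 of 6 libraries.

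Of the 6 pairs, those that set miR-99b-5p of the chromosome 17 cluster against its paralogues separated young from old libraries. miR-99b-5p was 1.71, 1.44 and 1.47 times miR-99a-5p in young replicates 1 to 3, and 1.11, 0.944 and 0.862 times in old replicates 1 to 3. All young ratios lay above all old ones, and the difference in mean log2 ratio was -0.67, old minus young. miR-99b-5p was 2.8, 2.15 and 2.39 times miR-100-5p in young and 1.56, 1.38 and 1.42 times in old, a difference of -0.75, also without overlap. Both ratios share miR-99b-5p, whose own level did not overlap either, so they are not independent of it or of each other. Among single loci, 27.1% of all 347 tested did not overlap between the groups, and no such share was taken for ratios. For both ratios the two-sided exact permutation p was 0.1, the smallest that 3 against 3 libraries allow, and 0.3 adjusted over 6 pairs, so that this design could not pass 0.05. Without old replicate 1, both differences were as large, at -0.765 and -0.797.

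For the other 4 pairs the young and old ratios overlapped. The ratio of miR-99a-5p to miR-100-5p had geometric means of 1.59 in young and 1.5 in old (difference -0.08 in log2, exact permutation p = 0.4). That of miR-125b-5p to miR-125a-5p had 1.79 and 1.95 (0.12, exact permutation p = 0.6), a difference of 0.000208 without old replicate 2 and 0.0383 without young replicate 1. That of the miR-99 and miR-100 family to the miR-125 family had 2.9 and 2.93 (0.02, exact permutation p = 1), since young replicate 1 (4.18) and old replicate 3 (4.09) were both high. A p that misses the threshold does not show that these ratios were equal.

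**Figure D2:**
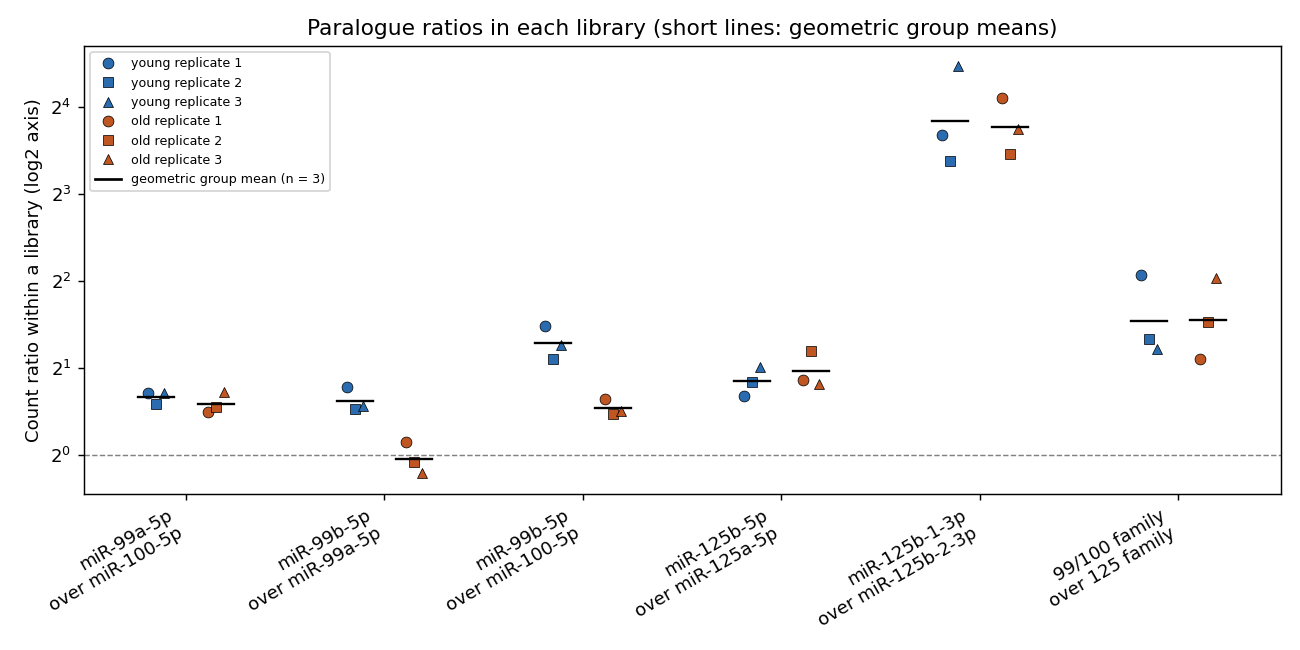
Count ratio of each pair within a library, on a log2 axis, for 3 young (blue) and 3 old (orange) libraries, with geometric group means as short lines and a dashed line at equal counts. The ratios of miR-99b-5p to miR-99a-5p and to miR-100-5p are lower in every old library than in any young one, and the other 4 pairs overlap.

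Seen as pools of one seed, the shares within the miR-99 and miR-100 pool separated young from old libraries, while the size of the pool overlapped. These pools were formed after the values were seen and carry no test. The pool held 11601 ± 1566 CPM (SD, n = 3) in the young group and 10263 ± 1052 CPM (SD, n = 3) in the old group, and the ranges overlapped. Its mean differed by -1338 CPM, old minus young. That of miR-99b-5p differed by -1891 CPM, and those of miR-99a-5p and miR-100-5p by 266 and 287 CPM. miR-99b-5p made up 51.5%, 46.3% and 47.6% of it in the young libraries and 39.3%, 35.9% and 34.9% in the old ones. miR-99a-5p went the other way, from 30.2% to 32.5% of the pool in young libraries to 35.5% to 40.5% in old ones. So did miR-100-5p, from 18.4% to 21.5% in young to 24.6% to 26% in old. Shares of a pool sum to a fixed whole, so these 3 statements are not independent.

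**Figure D3:**
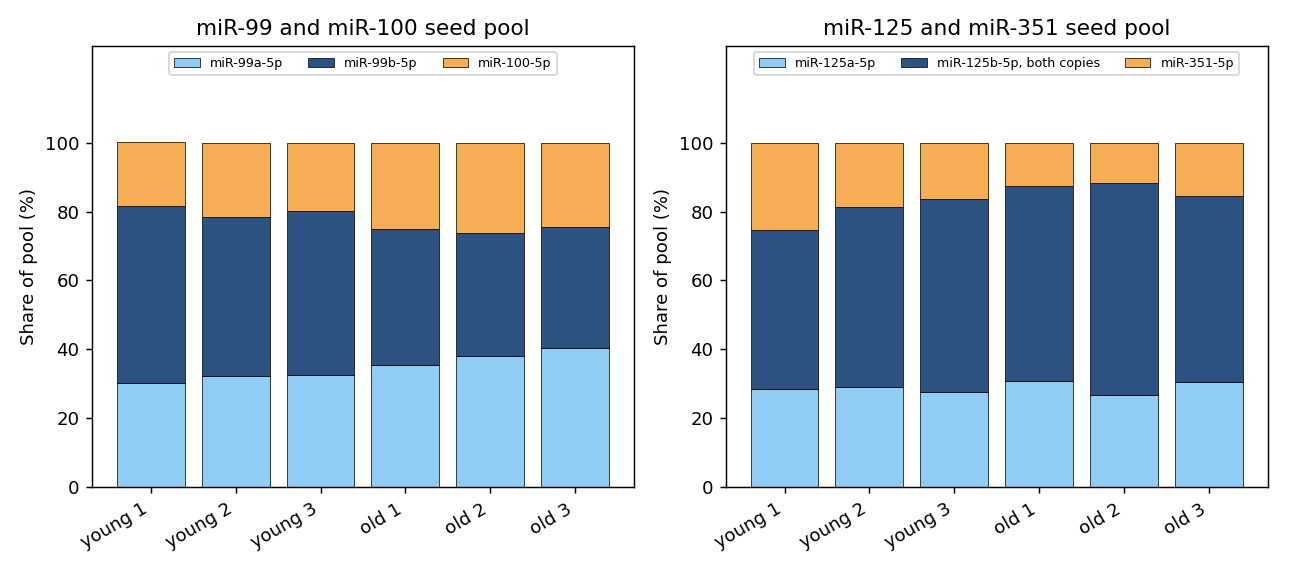
Share in percent of each miRNA in the pool that carries the miR-99 and miR-100 seed (left) and in the pool that carries the miR-125 and miR-351 seed (right), as stacked bars for each of the 6 libraries. miR-99b-5p takes 46.3% to 51.5% of its pool in young and 34.9% to 39.3% in old libraries, and miR-351-5p takes 16.5% to 25.5% and 11.6% to 15.5% of its pool.

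The change of each locus between old and young was tested with edgeR's quasi-likelihood test, with Benjamini-Hochberg adjustment over the 347 loci that passed the filter. No member locus passed the threshold of 0.05, which does not show that levels were equal. Over all loci, 15 of 347, or 4.32%, passed in either direction, and 3, or 0.865%, were lower in old. At an unadjusted p under 0.05 there was 1 member locus of 12, against 22.5% of all tested loci. DESeq2's Wald test called 1 member locus, lower in old. Over all 347 loci it called 23, of which 9 were lower in old. Of the 12 members, 7 had a positive and 5 a negative log2 fold change. Their median was 0.09, beside a median of 0.04 over all tested loci. Groups did not overlap at 2 of 12 member loci (27.1% of all tested loci), of which 1 was lower in old (13.0% of all).

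The member nearest to the threshold was miR-99b-5p, the locus ranked 29 of 347 by mean CPM. Its mean was 5644 ± 1042 CPM in the young and 3754 ± 198 CPM in the old libraries (SD, n = 3 each), with a log2 fold change of -0.59 ± 0.17 (SE) or 0.665 times the young level, with an adjusted p of 0.0545 by edgeR. Of 12 alternatives, 4 put it past 0.05 and 8 did not, and its log2 fold change was negative in all 12. Over all loci, DESeq2's Wald test called 23 of 347, and edgeR with copies summed 16 of 317. Without old replicate 1 edgeR called 45 of 359 loci and without old replicate 3 29 of 360, against 15 of 347 with all libraries. For miR-99b-5p, the adjusted p was 0.0157 by DESeq2's Wald test, and by edgeR 0.0445 with copies of each mature miRNA summed, 0.0107 without old replicate 1 and 0.039 without old replicate 3. By edgeR it was 0.051 with scaling that left out miR-21a-5p, 0.0575 with DESeq2's size factors, 0.0985 with no filter on low counts and 0.17 with a replicate block. It was 0.236 without young replicate 1, the highest library (log2 fold change -0.462), 0.146 without young replicate 2, 0.081 without young replicate 3, and 0.21 when old replicate 2 was left out.

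The paralogues from the other clusters had small positive values. miR-100-5p averaged 2304 ± 248 CPM in young libraries against 2591 ± 227 CPM in old ones, with a log2 fold change of 0.17 ± 0.16 and an adjusted p of 0.615 by edgeR. miR-99a-5p had 3653 ± 355 and 3919 ± 659 CPM (0.10 ± 0.17, adjusted p = 0.799), and its sign turned without old replicate 3 (-0.0399). The miR-125 5p loci had negative values. miR-125a-5p, encoded next to miR-99b, had 1434 ± 210 and 1204 ± 295 CPM (-0.25 ± 0.19, adjusted p = 0.504 by edgeR). Its value moved with single libraries. Leaving out old replicate 1 gave -0.454 (adjusted p = 0.0531 by edgeR) and leaving out young replicate 1 gave -0.396. Leaving out young replicate 2 gave -0.148, old replicate 2 gave -0.169 and old replicate 3 gave -0.164. miR-125b-5p had -0.18 ± 0.20 at Mir125b-1 and -0.12 ± 0.21 at Mir125b-2, and -0.16 ± 0.19 with both summed (adjusted p = 0.717 by edgeR). The value at Mir125b-2 came to 0.00059 without young replicate 2 and to 0.0159 without old replicate 3.

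**Figure D4:**
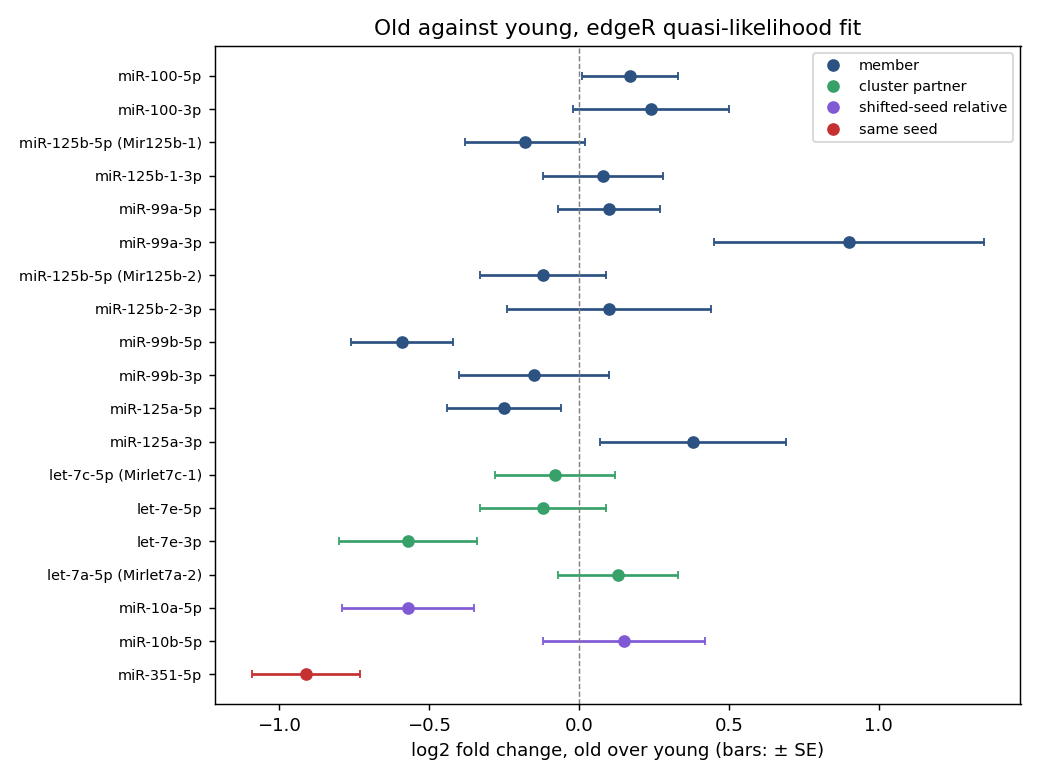
Log2 fold change of old over young with its standard error, from the edgeR fit, for the 12 member loci (blue) and the tested related loci (green for let-7 partners, purple for miR-10, red for miR-351-5p). miR-99b-5p (-0.59) is the lowest member and miR-351-5p (-0.91) is the only one shown that passed the test.

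The opposite arms were also compared between clusters. Between the miR-125b genes, the 3p arm of Mir125b-1 on chromosome 9 exceeded that of Mir125b-2 on chromosome 16 in 6 of 6 libraries, by 10.4 to 22.1 times (mean log2 ratio 3.80 ± 0.41, SD, n = 6, exact permutation p = 0.0312, adjusted 0.0375). Their sequences, printed above, differ already in the seed, so unlike the 5p copies they can be told apart. miR-125b-1-3p stood at 316, 294 and 341 CPM in young and 434, 314 and 261 CPM in old libraries, and miR-125b-2-3p at 24.8, 28.3 and 15.4 CPM in young and 25.2, 28.6 and 19.4 CPM in old. The ratio did not separate young from old (14.3 and 13.6 as geometric means, exact permutation p = 1).

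The same lean to chromosome 9 appeared at the neighbouring hairpins. miR-100-3p held 2.95 to 8.56 times the counts of miR-99a-3p, where miR-100-5p held fewer counts than miR-99a-5p. This pair was looked at after the values were seen and has no test, since miR-99a-3p was under the minimum of 10 counts in 1 library. miR-99a-3p held 9, 11 and 15 counts in young and 12, 19 and 21 in old libraries. It is the other member locus without overlap between the groups. On these few counts, it averaged 7.48 ± 1.87 CPM in young and 14 ± 2.13 CPM in old libraries (edgeR log2 fold change 0.90 ± 0.45, adjusted p = 0.245).

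The 5p arm held most reads in each of the 4 hairpins with a sequence of their own and in the miR-125b genes as a sum, whose 5p reads cannot be divided between them. The 3p arm made up 0.155% to 0.364% of the reads of miR-99a, 1.69% to 3.16% of miR-100, 1.52% to 3.22% of miR-125a and 3.64% to 8.03% of miR-99b. For miR-125b, with both genes summed, it was 9.92% to 14.9%. Between old and young, the log2 ratio of 5p to 3p counts differed by -0.41 for miR-99b, -0.64 for miR-125a, -0.05 for miR-100 and -0.21 for miR-125b. The two-sided exact permutation p was 0.3, 0.2, 0.9 and 0.4 in that order, and none passed after adjustment over 4 hairpins (0.533, 0.533, 0.9 and 0.533). The miR-125b difference ran from -0.404 (without young replicate 1) to -0.0704 (without young replicate 2), and that of miR-125a from -0.929 to -0.464 without the same libraries. While miR-99b-5p was lower in every old library, miR-99b-3p stood at 293, 296 and 182 CPM in young and 320, 170 and 206 CPM in old, with overlap (log2 fold change -0.15 ± 0.25). The arm ratio of miR-99b differed by -0.137 without old replicate 1. The arms of miR-99a were not tested for their low 3p counts. There the 5p arm held 643, 556 and 341 times the 3p counts in young and 273, 282 and 283 times in old libraries, without overlap.

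None of the opposite arms passed the test. Of 6 opposite-arm loci 5 had a positive log2 fold change, with a median of 0.17, beside 182 of 347 and a median of 0.04 over all tested loci. Of the 5 miRNAs on the 5p arm, with the copies of miR-125b-5p counted once, 2 were positive and 3 negative. miR-125a-3p stood at 35.9, 25.3 and 24.4 CPM in young and at 51.4, 31.5 and 29.5 CPM in old libraries (0.38 ± 0.31, adjusted p = 0.531 by edgeR). miR-100-3p stood at 53.1, 48.1 and 60.9 CPM in young and at 76.6, 67.3 and 48.1 CPM in old (0.24 ± 0.26, adjusted p = 0.675 by edgeR). Both overlapped between groups and were highest in old replicate 1. The 3p arms of the miR-125b genes had log2 fold changes of 0.08 (Mir125b-1) and 0.10 (Mir125b-2), whose signs turned with a library left out.

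Each cluster also holds a let-7 gene. let-7 miRNAs are conserved repressors of growth genes that accumulate in differentiated cells. In the chromosome 17 cluster, where let-7e-5p is encoded by that gene alone, it stood at 1972, 2342 and 2366 CPM in young and 2896, 1631 and 1645 CPM in old libraries. It was highest in old replicate 1, the library with the largest let-7 share. miR-125a-5p held 0.533 to 0.699 times the counts of let-7e-5p in all 6 libraries, a narrow range. miR-99b-5p, encoded 172 bases before let-7e-5p, held 1.26 to 3.45 times its counts, lowest in old replicate 1. These ratios were chosen after the values were seen and are given without a test.

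The partners let-7c-5p on chromosome 16 and let-7a-5p on chromosome 9 have identical copies elsewhere, which held nearly equal counts (0.97 to 0.986 and 0.975 to 1.02 times). Their level therefore does not belong to the cluster alone. Of the 6 partner loci, 4 were tested and 0 passed. edgeR gave log2 fold changes of -0.08 for let-7c-5p, 0.13 for let-7a-5p and -0.12 for let-7e-5p, all with overlap. let-7e-3p averaged 136 ± 21.6 CPM in young and 91.9 ± 21.5 CPM in old libraries, without overlap (edgeR log2 fold change -0.57 ± 0.23, adjusted p = 0.16). The cluster-specific let-7a-2-3p had 2 to 8 counts per library and let-7c-1-3p had 1, 1 and 0 counts in young and 0 in each old library, where 0 allows up to 2.12 to 3.32 CPM.

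Among other miRNAs with a member's seed, miR-351-5p fell from 998 ± 121 CPM in young to 532 ± 85.1 CPM in old vesicles (edgeR log2 fold change -0.91 ± 0.18, adjusted p = 0.00599). It comes from the miR-322 and miR-503 cluster on chromosome X, which is induced in muscle differentiation. The call was lost without young replicate 1 (adjusted p = 0.0615) and without old replicate 2 (0.1). miR-351-5p made up 25.5%, 18.7% and 16.5% of the pool with the miR-125 seed in young and 12.6%, 11.6% and 15.5% in old libraries. The pool as a whole held 5027 ± 700 CPM in young and 4077 ± 848 CPM in old, with overlap. miR-6367 and miR-6394, the other 2 with this seed in the RefSeq table, were listed at 0 in all libraries.

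miR-10a-5p and miR-10b-5p, from the Hox clusters, match much of the miR-99 sequence with an extra base in the seed. miR-10a-5p averaged 121 ± 14.8 CPM in young and 81.6 ± 7.51 CPM in old libraries, without overlap (-0.57 ± 0.22, adjusted p = 0.139 by edgeR). miR-10b-5p had 47.9 ± 3.26 and 53.8 ± 16.3 CPM (0.15 ± 0.27, adjusted p = 0.806). Of the 7 related loci tested, 1 passed as lower in old (miR-351-5p), 0 as higher, and 6 did not pass. Over all tested loci 15 of 347, or 4.32%, passed, and 3, or 0.865%, were lower in old.

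How alike 2 miRNAs ran over the 6 libraries was described by the root-mean-square difference of their mean-centred log2 CPM, copies summed. It is smaller the more alike they are. Among the members alone, the closest pairs had a seed in common, not a cluster. The difference was 0.09 for miR-99a-5p and miR-100-5p and 0.16 for miR-125a-5p and miR-125b-5p. It was 0.37 for miR-99b-5p and miR-125a-5p of 1 cluster, 0.44 for miR-99a-5p and miR-125b-5p and 0.4 for miR-100-5p and miR-125b-5p. miR-99b-5p was apart from its own family, at 0.36 and 0.39 from miR-99a-5p and miR-100-5p. Some miRNAs outside the families ran closer than these seed mates. let-7e-5p, from the cluster of miR-125a-5p, was 0.12 from it, and miR-218-5p was 0.06 from miR-99a-5p.

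Among the 306 other mature miRNAs, from which miR-99b-5p differed by a median of 0.47, the closest was miR-10a-5p (0.09), then miR-423-3p (0.12) and miR-222-3p (0.12). For miR-99a-5p they were miR-218-5p (0.06), miR-29a-3p (0.06) and miR-192-5p (0.09), and for miR-100-5p miR-29a-3p, miR-181c-5p and miR-192-5p (0.07 each). miR-125b-5p ran closest to miR-423-5p (0.05), the mature miRNA of Mir5099 (0.13) and miR-449a-5p (0.16). miR-125a-5p ran closest to miR-449a-5p (0.11), its cluster partner let-7e-5p (0.12) and miR-98-5p of the let-7 family (0.13). These distances describe 6 libraries that share their group and scaling, and they carry no test.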

How the data were processed

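Small RNA of vesicles from young and old mouse muscle was sequenced in 3 libraries each, grouped by title. The deposited values are unnormalised read counts for each mature miRNA locus, which the authors made with featureCounts 2.0.6, per the file headers, with no strand, overlap or multi-mapping option. The authors aligned reads with BWA to mm10, per the submitters' processing notes. For trimming and BWA's settings, nothing is given in the sources used here. Library totals were 904892 to 1706396 counts.

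Loci were named by exact position from RefSeq (1734 of 2110 matched), otherwise from GENCODE M21. Old and young were compared with edgeR 4.0.16 (R 4.3.3): filterByExpr (minimum count 10, minimum total 15), TMM, quasi-likelihood test over 347 loci, threshold 0.05, tested on simulated data. Ratios used counts of at least 10 in every library and exact tests over libraries. DESeq2 1.42.0 was an alternative. The likeness measure used log2(CPM + 1). The text names all members, let-7 partners, miRNAs with a member's seed, miR-10 and the 3 most alike miRNAs per member. Members and lists were chosen with earlier results of these data known.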

Additional observations from a re-analysis of the deposited data

How the results depend on the processing

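Of 228 alternative values for single loci, 210 kept their direction and their side of the threshold. The count of member loci lower in old was 0 by edgeR and 1 by DESeq2's Wald test and 1 with copies summed, and ran from 0 to 1 when a library was left out. The locus called was miR-99b-5p each time. Over all loci, 3 of 347 were lower by edgeR, 9 of 347 by DESeq2's Wald test and 5 of 317 with copies summed. With a library left out, this ran from 0 of 356 (without old replicate 2) to 20 of 359 (without old replicate 1). No setting called a member higher. Leaving out 1 library turned the sign of small log2 fold changes. Over left-out libraries, miR-99a-5p ran from -0.0399 (without old replicate 3) to 0.226, and miR-125b-5p (Mir125b-2) from -0.341 to 0.0159 (without old replicate 3), with 0.00059 without young replicate 2. miR-99b-3p ran from -0.434 to 0.0284 (without old replicate 2), miR-125b-1-3p from -0.117 (without old replicate 1) to 0.218, and miR-125b-2-3p from -0.129 (without young replicate 3) to 0.292, with -0.0448 without old replicate 2. let-7e-5p ran from -0.425 to 0.0274 (without old replicate 2), and let-7c-5p (Mirlet7c-1) from -0.369 to 0.0546 (without old replicate 3), with 0.0254 without old replicate 2. let-7a-5p (Mirlet7a-2) ran from -0.165 to 0.275 and miR-10b-5p from -0.073 to 0.316, both lowest without old replicate 1. Over all loci, the 15 calls by edgeR became 23 by DESeq2's Wald test and 5 (without old replicate 2) to 45 (without old replicate 1) with a library left out. The cause was not tested.

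The level ratios could not pass with 5 libraries, which allow no p under 0.05 (adjusted 0.075). Over left-out libraries the mean log2 ratio was 0.608 to 0.653 for miR-99a-5p over miR-100-5p, 0.795 to 0.999 for miR-99b-5p over miR-100-5p, 0.841 to 0.945 for miR-125b-5p over miR-125a-5p, 3.67 to 3.89 for the miR-125b 3p arms and 1.44 to 1.63 for the miR-99 and miR-100 over the miR-125 family. With one copy of miR-125b-5p its ratio to miR-125a-5p was -0.141, since the sum was replaced by 1 copy. The old minus young difference of small ratios changed sign: it ran from -0.222 to 0.281 for the family ratio, -0.3 to 0.245 for the miR-125b 3p arms and -0.303 to 0.159 for the arms of miR-100. It ran from 0.000208 (without old replicate 2) to 0.202 for miR-125b-5p over miR-125a-5p. Those of miR-99b-5p ran from -0.765 to -0.585 against miR-99a-5p and from -0.833 to -0.644 against miR-100-5p.

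Replicate numbers are shared between groups, and the labels do not say what a number means. Deviations from the group means correlated across loci at -0.13, 0.02 and -0.15 between libraries of the same number. With 3 libraries per group, these values cannot decide whether the numbers mark a pairing. With a replicate block, 6 of 347 loci passed against 15 without it, no member did, and miR-99b-5p had -0.574 (adjusted p = 0.17). In a paired exact permutation test its log2 ratios to miR-99a-5p and miR-100-5p gave an adjusted p of 0.75, where 3 pairs allow no p under 0.25. DESeq2's Wald test gave no adjusted p for miR-99a-3p. Depth limits the 3p arms of miR-99a, miR-125a and miR-125b-2 most.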
